A study of Mus musculus with 6 samples.

Results

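The insulin receptor and PI3K branch upstream of mTORC1 was followed through 8 genes: the receptors Insr and Igf1r, the docking proteins Irs1 and Irs2, the adaptor Grb10, the PI3K regulatory subunit Pik3r1, and the kinases Akt1 and Akt2. They were taken by name as known parts of this pathway, and all 8 were measured, out of 18193 genes on the array, by 24 probe sets out of 34945 that name a single gene. For each gene the probe set with the highest mean over all 6 arrays stands for the gene, and the others are given beside it. The RNA came from mouse bone marrow cells sorted as stem and progenitor cells, which carry Sca1 and cKit on their surface and lack Flt3 and the markers of mature lineages. In the 3 Raptor mutant samples the mice carried loxP sites around exon 6 of both Raptor (Rptor) alleles together with the MxCre transgene. In the 3 wild type samples the mice carried the same homozygous floxed alleles and no MxCre. Both groups were on a C57BL/6 background and both had been given pIpC, which induces interferon: 3 injections within 5 days, of 15 µg per g of mouse, ended 5 weeks before the sort. Cre under the Mx promoter is switched on by interferon and acts in many interferon-responsive cells, not in stem cells alone. The labels used here give neither the age nor the sex of the mice, and do not say whether RNA of several mice was pooled. The p-values below therefore rest on array-to-array spread, part of which may be technical.

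Insulin and insulin-like growth factors bind the receptor tyrosine kinases INSR and IGF1R, which phosphorylate the docking proteins IRS1 and IRS2. These recruit PI3K, whose lipid product recruits AKT to the membrane, and AKT in turn releases mTORC1 from its inhibitor, the TSC complex. Raptor is the subunit that defines mTORC1. Active mTORC1 dampens the same pathway: its substrate S6 kinase phosphorylates IRS1 and promotes its loss, and mTORC1 itself phosphorylates and stabilises GRB10, an adaptor that holds back signalling from both receptors. Those feedback steps act on proteins, whereas the arrays measured RNA.

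Several features of the arrays bear on every value below. Y-linked Kdm5d had a log2 signal of 3.69 to 3.88 on the mutant arrays, and of 3.60, 10.6 and 9.53 on wild type arrays 1, 2 and 3. X-linked Xist had 13.37 to 13.40 on the mutant arrays, and 13.46, 8.05 and 5.69 on wild type arrays 1, 2 and 3. Thus wild type 1 is the single wild type array that resembles the mutants in this respect. The labels give no sex, and its part in the values below was not tested. Wild type arrays 2 and 3 also stood apart over all probe sets: each correlated with every other array at 0.957 to 0.968 (Pearson, log2 signal), whereas the mutant arrays correlated at 0.985 to 0.988 with each other and at 0.977 to 0.984 with wild type 1. The differences between the groups therefore rest in part on these 2 arrays, and values without them are given where they differ. Among all genes the SD was larger in wild type than in mutant arrays for 75.8%, and this held for all 8 pathway genes. The brightest Rptor probe set had a log2 fold change of 0.22 ± 0.29 (SE, limma adjusted p = 0.77), and its place relative to exon 6 was not analysed here. Of the markers of the sorted cells, Kit and Cd34 averaged 10.8 and 11.6 in mutant and 10.9 and 11.8 in wild type arrays on the log2 scale, and Flt3, whose protein was gated out, averaged 9.96 in mutant and 10.2 in wild type arrays. The mean log2 signal of the stem and progenitor markers (12 of 14 measured, 7 lower at an unadjusted p under 0.05 and 1 of them called by limma) was 10.2 to 10.3 on mutant and 10.7 to 10.8 on wild type arrays. Markers of other cells also moved with the group. The mean of the mast cell and basophil markers (7 of 8 measured, 4 higher at that p, 0 called) was 8.75 to 9.09 on mutant and 7.24 to 7.57 on wild type arrays. That of 10 macrophage and dendritic markers (6 higher, 0 called) was 7.93 to 8.57 on mutant and 7.20 to 7.26 on wild type arrays. That of 10 neutrophil markers (8 lower, 2 called lower) was 8.06 to 8.82 on mutant and 10.0 to 10.6 on wild type arrays. Megakaryocyte markers (7 of 8 measured, 1 higher and 3 lower at that p, 0 called) averaged 8.23 to 8.51 on mutant and 8.83 to 8.87 on wild type arrays. T and NK cell markers (9 of 10 measured) averaged 6.26 to 6.71 on mutant and 5.89 to 6.25 on wild type arrays. Of these, 1, the granzyme gene Gzmb, was called higher with a log2 fold change of 4.21 (limma adjusted p = 0.013). The median log2 fold change of the 9 was -0.0034, with 4 above 0 and 5 below, so most of that list did not share the higher mean. Means of the B cell, erythroid, stromal and remaining lineage markers overlapped between the groups. The part of these markers in the results below was not tested, and in such mixed RNA fewer cells of a type and less RNA per cell cannot be told apart.

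None of the 8 genes was called changed in Raptor mutant cells. By limma, with p-values adjusted over all genes, 0 of 8 passed at an adjusted p under 0.05, where 0.110% of all genes did, and the smallest adjusted p among them was 0.43, for Grb10. At an unadjusted p under 0.05 there was 1 of the 8, again Grb10, where 10.0% of all genes passed. Which gene that was depended on the arrays. In a limma fit with Y-linked signal as covariate, the mean log2 signal of Eif2s3y and Kdm5d, it was Irs2 (unadjusted p = 0.018, Grb10 0.38). That signal was high on wild type arrays 2 and 3 alone, so this fit sets the mutants mainly against wild type array 1. Leaving out wild type arrays 2 and 3 makes nearly the same comparison (log2 fold change 0.82 for Irs2 and 0.15 for Grb10). Of the 6 limma fits that left out 1 array, 4 had none of the 8 under 0.05 (1066 to 1738 of all genes). Without mutant array 1 there was 1 (1266 of all genes), and without wild type array 1 there were 2 (3938). Grb10 was also the one gene of the 8 whose mutant and wild type values did not overlap at its brightest probe set, a pattern shown by 16.1% of all genes (8.08% with the mutants higher and 7.98% with them lower). At an unadjusted p under 0.05, 5.81% of all genes were higher. The counts among the 8 are close to these shares. The median log2 fold change of the 8 was 0.03, against -0.07 over all genes, with 4 above and 4 below 0.

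**Figure D1:**
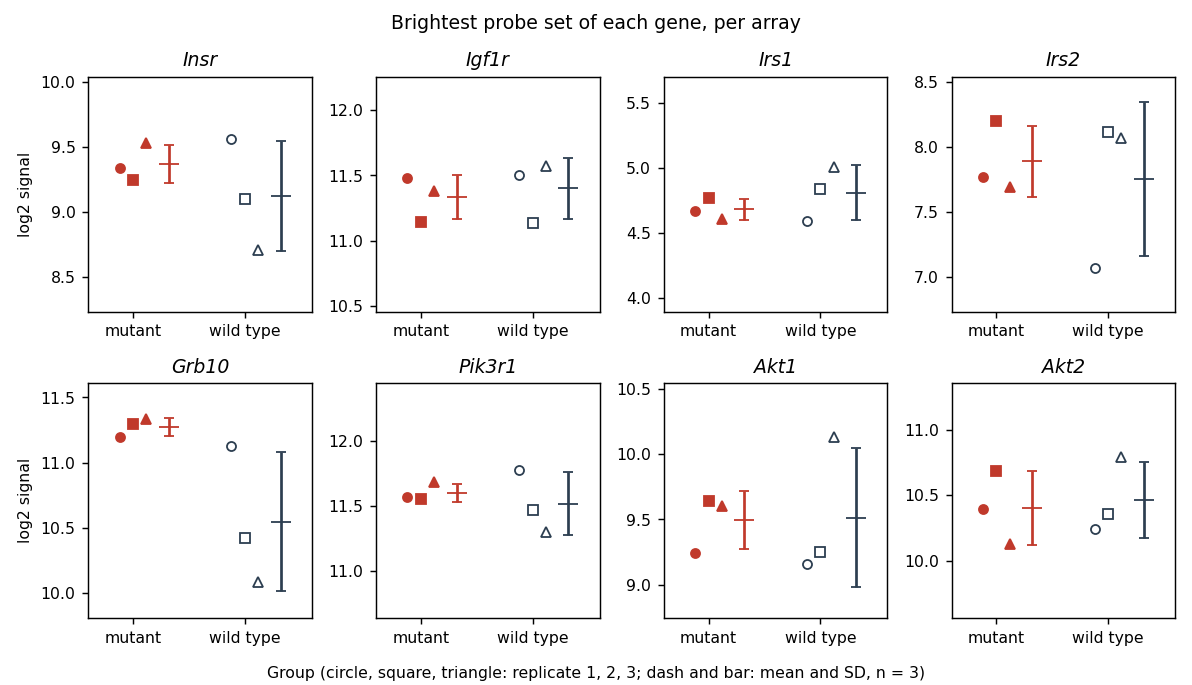
Log2 signal of the brightest probe set of each gene on each array, with Raptor mutant arrays on the left (filled red) and wild type arrays on the right (open), and the mean and SD of each group (n = 3). Every panel spans the same log2 range, so that spreads compare, while levels of different genes do not. Grb10 is the one panel in which the groups do not overlap, and its wild type array 1 (circle, 11.13) lies just under the lowest mutant array (11.20).

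Grb10, an imprinted gene whose product binds the insulin and IGF1 receptors and restrains their signalling, was higher on every mutant array than on every wild type array at each of its 3 probe sets. At the brightest, 1425458_a_at, the log2 signal was 11.20, 11.30 and 11.33 on mutant arrays 1, 2 and 3, and 11.13, 10.42 and 10.09 on wild type arrays in that order. Wild type array 1 lay just below the lowest mutant array, and the other two wild type arrays lay well below it. The log2 fold change was 0.73 ± 0.26 (SE), a fold of 1.66 with a 95% interval of 1.09 to 2.53, and limma gave an unadjusted p of 0.025 and an adjusted p of 0.43.

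At the second probe set, 1425457_a_at, the mutant arrays read 9.45, 9.11 and 9.29 and the wild type arrays 8.52, 8.57 and 7.63. Here the gap between the lowest mutant array and the highest wild type array, number 2, was plain, and wild type array 3 again stood lowest. The dimmest, 1430164_a_at, had 7.82, 8.09 and 8.69 on mutant and 6.95, 7.27 and 7.44 on wild type arrays. At this probe set wild type array 1 was the lowest of the wild type arrays instead of the highest. In the limma fit over all 34945 probe sets their log2 fold changes were 1.04 ± 0.27 and 0.98 ± 0.26 (SE), or 2.06-fold and 1.97-fold, each with an adjusted p of 0.32. The 3 probe sets report on 1 gene in the same RNA and are not independent replicates.

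Set against wild type array 1 alone, which lacks the Y-linked signal as the mutants do, the mean of the mutant arrays was 1.11-fold, 1.70-fold and 2.38-fold in the order of the probe sets above. The direction was thus the same at each, while the size at the brightest probe set rested on wild type arrays 2 and 3. Without those 2 arrays the log2 fold change of that probe set was 0.15, where the wild type side is 1 array assumed to vary like the mutant arrays. Without wild type array 1 it was 1.02 (limma adjusted p = 0.10). The mean of the 3 probe sets gave a log2 fold change of 0.92 and an adjusted p of 0.11.

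**Figure D2:**
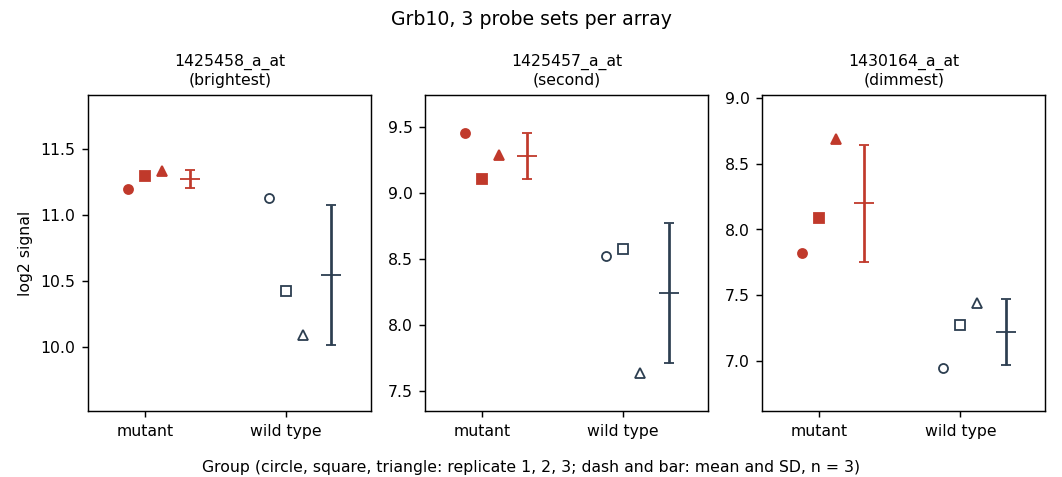
Log2 signal of Grb10 on each array at its 3 probe sets, brightest to dimmest from left to right, Raptor mutant arrays at the left of each panel and wild type arrays at the right, with mean and SD (n = 3 each). The panels share the length of the axis but not its position. Each mutant array lies above each wild type array in all 3 panels, and the rank of wild type array 1 (open circle) among the wild type arrays changes from highest in the left panel to lowest in the right one.

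RefSeq (GRCm38.p6) places 2 transcription starts of Grb10 on the minus strand, and the 250 bases before each are shown because Grb10 is the gene whose groups do not overlap. The upstream start follows the last base of the GC-rich window chr11:12037421-12037670, which is 81.2% G and C with 40 CpG dinucleotides. The downstream start follows the window chr11:12027972-12028221, with 54.0% G and C and 8 CpG. Which start gave rise to the RNA at any probe set was not analysed here.
Grb10 upstream start: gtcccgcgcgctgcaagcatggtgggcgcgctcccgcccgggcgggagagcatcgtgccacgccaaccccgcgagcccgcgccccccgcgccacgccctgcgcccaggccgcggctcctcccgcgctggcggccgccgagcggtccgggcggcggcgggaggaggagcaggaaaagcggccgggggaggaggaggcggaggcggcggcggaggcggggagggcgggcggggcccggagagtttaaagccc
Grb10 downstream start: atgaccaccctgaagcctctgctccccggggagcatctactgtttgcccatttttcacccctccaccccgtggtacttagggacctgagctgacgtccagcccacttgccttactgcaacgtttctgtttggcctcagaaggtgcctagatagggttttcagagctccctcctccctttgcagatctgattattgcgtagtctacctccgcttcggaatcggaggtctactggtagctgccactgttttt

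The receptors showed no difference beyond the spread of the arrays. Insr, the insulin receptor, had 9.33, 9.25 and 9.53 on mutant arrays 1 to 3, and the wild type arrays 1 to 3 had 9.56, 9.10 and 8.71 (log2 signal). Wild type array 1 was the highest of all 6 arrays and wild type array 3 the lowest, so the wild type arrays enclosed the mutant ones. The log2 fold change was 0.25 ± 0.23 (SE, limma adjusted p = 0.71), with a 95% interval of 0.82 to 1.73 as a fold. Log2 fold changes at the other Insr probe sets were -0.13 and 0.18, and the groups overlapped at all 3.

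Igf1r, the receptor for insulin-like growth factor 1, had 11.48, 11.14 and 11.38 on mutant and 11.50, 11.14 and 11.57 on wild type arrays. The 2 groups covered nearly the same range. Its log2 fold change was -0.07 ± 0.18 (SE, limma adjusted p = 0.89), and the 95% interval of the fold was 0.71 to 1.28 at this probe set. The difference between Igf1r and Insr within an array was -0.32 in mutant minus wild type arrays (exact permutation test, two-sided, p = 0.50; 0.75 after adjustment over 3 pairs of related genes). With 3 arrays against 3 that test cannot go below 0.10. Its 5 probe sets did not point one way, with log2 fold changes from -0.56 to 0.25, 2 above 0 and 3 below, and a smallest adjusted p of 0.59. The lowest of them, at the third brightest probe set, came from 9.61, 9.23 and 8.81 on mutant and 9.74, 10.25 and 9.34 on wild type arrays, which overlap.

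The genes of the docking proteins, with a single probe set each, also had overlapping groups. Irs1 had 4.67, 4.77 and 4.61 on mutant and 4.59, 4.84 and 5.00 on wild type arrays. All 6 values lay under the lower quartile of the mean signals of all genes, 5.65, and no detection calls were used here. Its log2 fold change was -0.13 ± 0.17 (SE, limma adjusted p = 0.78). The genes whose values over the 6 arrays followed Irs1 most closely were 4833439F03Rik, the hair keratin gene Krt35 and the protease gene Tmprss11f, with Pearson r of 0.999, 0.997 and 0.996 in this order, and 326 genes had an r above 0.95.

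Irs2, the other main docking protein of blood cells and liver, had 7.77, 8.20 and 7.69 on mutant and 7.07, 8.12 and 8.07 on wild type arrays. Wild type array 1 was the lowest of all arrays, and wild type arrays 2 and 3 lay within the mutant range. The log2 fold change was 0.13 ± 0.30 (SE, limma adjusted p = 0.87), a 95% interval of 0.67 to 1.79 as a fold. The direction depended on the arrays used, and it was reversed in 2 of 17 alternative settings. Against wild type array 1 alone the log2 fold change was 0.82, a comparison with a single array. In a fit with the Y-linked covariate, which rests mainly on the same comparison, it was 0.77 (limma adjusted p = 0.62). Without wild type array 1 it was -0.21 (limma adjusted p = 0.54). The difference between Irs2 and Irs1 within an array was 0.26 in mutant minus wild type arrays (exact permutation test, two-sided, p = 0.40; 0.75 after adjustment over the same 3 pairs). Both genes enter this value, Irs2 with a log2 fold change of 0.13 and Irs1 with one of -0.13. Since Irs1 is dim on all arrays, with no detection call, the value cannot be read as a contrast of both docking proteins.

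The windows before the starts of Irs1 and Irs2 are shown because both hold the E-box CACGTG (capitals, searched on both strands). The Irs1 window is chr1:82291440-82291689 and the Irs2 window chr8:11008930-11009179, both on the minus strand of GRCm38.p6 (RefSeq), and the E-box begins 115 and 44 bases before the start.
Irs1: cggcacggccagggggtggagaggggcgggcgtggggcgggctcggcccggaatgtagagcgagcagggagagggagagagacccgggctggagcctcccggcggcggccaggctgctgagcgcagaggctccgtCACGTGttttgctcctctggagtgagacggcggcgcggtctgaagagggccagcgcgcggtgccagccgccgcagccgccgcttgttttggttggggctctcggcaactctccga
Irs2: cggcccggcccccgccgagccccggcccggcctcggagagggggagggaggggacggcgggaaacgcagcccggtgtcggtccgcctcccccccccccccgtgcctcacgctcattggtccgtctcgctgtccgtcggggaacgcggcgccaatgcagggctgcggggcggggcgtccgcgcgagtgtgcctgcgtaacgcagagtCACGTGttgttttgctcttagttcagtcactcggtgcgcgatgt
Of 13 such windows found for 7 of the 8 genes, these 2 held CACGTG, as did 6.02% of 32851 windows of the same length. The FoxO element GTAAACA, searched on both strands, stood in 1 window, of Akt1, 161 bases before the start, and in 3.17% of all windows. The cAMP response element TGACGTCA stood in 0 of the 13 and in 1.55% of all. A match is a description of the letters and shows no binding.

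Pik3r1, which encodes the p85 alpha regulatory subunit that holds and positions the catalytic subunits of PI3K, had 11.56, 11.55 and 11.68 on mutant and 11.78, 11.46 and 11.30 on wild type arrays. As for Insr, wild type array 1 was the highest and wild type array 3 the lowest. The log2 fold change was 0.08 ± 0.17 (SE, limma adjusted p = 0.86), and the 95% interval of the fold was 0.80 to 1.40. Its 4 probe sets gave log2 fold changes from -0.33 to 0.08, 2 on each side of 0, and the groups overlapped at all 4.

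The 2 AKT kinases had small differences at their brightest probe sets. Akt1, the most widely expressed AKT, had 9.24, 9.64 and 9.60 on mutant and 9.16, 9.25 and 10.13 on wild type arrays, where array 3 stood above all others. Akt2, the isoform tied most closely to glucose uptake in response to insulin, had 10.39, 10.69 and 10.12 on mutant and 10.24, 10.35 and 10.79 on wild type arrays. Wild type array 3 was again the highest. Akt1 had a log2 fold change of -0.02 ± 0.28 and Akt2 one of -0.06 ± 0.22 (SE), and limma's adjusted p was 0.98 for Akt1 and 0.92 for Akt2. The difference between Akt2 and Akt1 within an array was -0.042 in mutant minus wild type arrays, with a two-sided exact permutation p of 0.80, also after adjustment.

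A dimmer probe set of each AKT gene had groups that did not overlap, without passing the test. The dimmest of the 4 Akt1 probe sets had 6.87, 7.08 and 6.94 on mutant and 7.24, 7.38 and 7.78 on wild type arrays, which do not overlap, with a log2 fold change of -0.51 ± 0.19 (SE, limma adjusted p = 0.49). The second of the 3 Akt2 probe sets had 8.19, 8.18 and 8.11 on mutant and 8.33, 8.43 and 8.59 on wild type arrays, also without overlap, with one of -0.29 ± 0.15 (SE, limma adjusted p = 0.60). All 3 Akt2 probe sets were below 0, from -0.29 to -0.06, and of the 4 Akt1 probe sets 1 was above 0 and 3 were below.

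**Figure D3:**
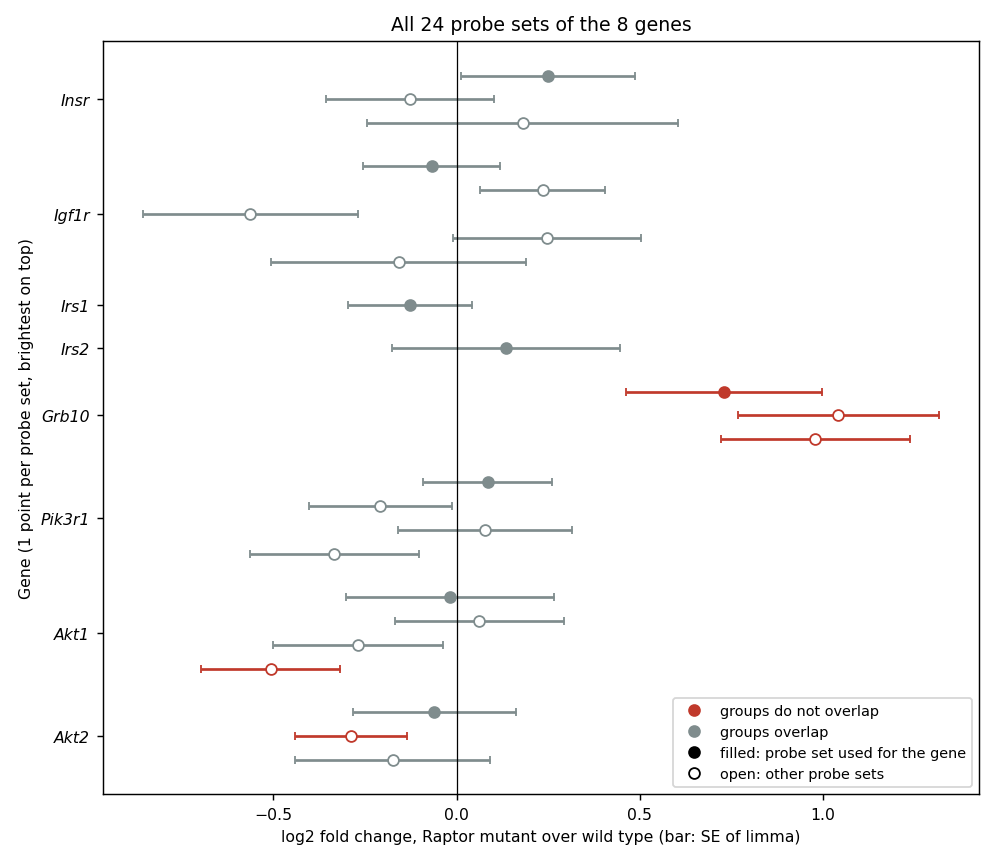
Log2 fold change, Raptor mutant over wild type, with the SE of limma, for all 24 probe sets of the 8 genes, brightest on top within each gene. Filled points are the probe sets used for the gene, and red marks those whose 3 mutant and 3 wild type values do not overlap. The 3 Grb10 points lie between 0.73 and 1.04, and the other 21 lie between -0.56 and 0.25.

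Over all 24 probe sets, 11 had a log2 fold change above 0 and 13 below. The groups did not overlap at 5, which were 3 of Grb10 on the higher side and 1 each of Akt1 and Akt2 on the lower side. Among all 34945 probe sets 15.6% did not overlap, 8.38% with the mutants higher and 7.20% with them lower. In the fit over all probe sets limma called 0 of the 24, where 0.0343% of all probe sets were called, and 4 had an unadjusted p under 0.05, where 9.39% of all did. These 4 were the 3 of Grb10 and the dimmest of Akt1.

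At the brightest probe sets the spread of the wild type arrays had a shared form in several of these genes. There wild type array 1 was the highest wild type array for Insr, Grb10 and Pik3r1 and the lowest for Irs1, Irs2, Akt1 and Akt2. Some dimmer probe sets ranked alike and others did not: wild type array 1 was the lowest of the wild type arrays at the dimmest of Pik3r1 and of Grb10. It was the highest of them at the dimmest of Akt2. At the brightest Grb10 probe set, wild type array 1 stood 0.87 above the mean of wild type arrays 2 and 3, which exceeds the log2 fold change there. For Insr it stood 0.65 above. For Irs2 it stood lower by 1.02 than that mean (log2 difference of -1.02). The mutant arrays were closer together, with an SD of 0.07 for Grb10 and Pik3r1 and of 0.28 for Akt2, against 0.53, 0.24 and 0.29 in wild type. Among the genes that followed Grb10 most closely over the 6 arrays were Ccdc22, Ctbp2 and Man1a2, with log2 fold changes of 0.63, 0.59 and 0.63 and none of them called, and 159 genes had a Pearson r above 0.95 with it. With 6 arrays such values describe the shared form and no more.

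The rest of the pathway was read through 7 lists of 95 other genes by role, of which 88 were measured. Limma called 0 of the 88, and the smallest adjusted p was 0.16. At an unadjusted p under 0.05 there were 10 of 88, or 11.4%, 7 higher and 3 lower, where 10.0% of all genes passed (5.81% higher and 4.24% lower). The groups did not overlap in 13, or 14.8%, against 16.1% of all genes. The median log2 fold change was -0.10, against -0.07 over all genes, and both lay above 0 in some settings: 0.013 and 0.044 without wild type arrays 2 and 3, 0.0099 and 0.037 with the Y-linked covariate, and 0.022 and 0.060 without the lower 50% of genes. By these counts the pathway as a whole stood near the background of the array.

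Ligands and their binding proteins, 12 measured, had 11 values below 0, where 59.6% of all genes were below 0. Their median was -0.19, with no gene at an unadjusted p under 0.05. This list was dim, with a mean log2 signal of 6.31 to 6.89 per array, against a median of 7.55 over all genes. The 59.6% covers genes of every signal level. Igf2, an imprinted growth factor gene, read 5.45, 4.98 and 4.92 on mutant and 5.17, 7.09 and 5.50 on wild type arrays, where array 2 alone stood high. Its log2 fold change was -0.81 (limma adjusted p = 0.59), and it was -0.22 without wild type array 2, -0.060 without wild type arrays 2 and 3 and -0.053 with the Y-linked covariate. Igfbp7 and Igfbp6, of the IGF binding protein family, differed by -0.34 and -0.32 (log2, limma adjusted p of 0.63 and 0.64). Other receptors and adaptors, 20 measured, had a median of -0.12 and again none at that p. Irs4 and the docking protein Gab1 had log2 fold changes of -0.47 and -0.36, and Dok1, a docking protein that restrains signalling in blood cells, had one of 0.35, with limma adjusted p of 0.54, 0.56 and 0.62. Gab1 was the one gene of that list whose groups did not overlap.

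Among 13 further PI3K subunit genes the median was -0.15, with 2 higher and 1 lower at an unadjusted p under 0.05. Pik3r5, the p101 regulatory subunit of the gamma isoform that acts downstream of G protein-coupled receptors, had 7.37, 7.82 and 7.50 on mutant and 6.92, 6.90 and 6.99 on wild type arrays. The wild type arrays were close together and every mutant array lay above them. Its log2 fold change was 0.63 ± 0.17 (SE, limma adjusted p = 0.27). Pik3cd, the catalytic subunit delta of white blood cells, had 9.36 to 9.54 on mutant and 8.73 to 9.19 on wild type arrays, a log2 fold change of 0.45 ± 0.17 (SE, limma adjusted p = 0.46). Pik3r3, a regulatory subunit like Pik3r1, had one of -0.46 ± 0.17 (adjusted p = 0.45, limma) at a signal of 4.24 to 4.54 on mutant and 4.61 to 4.96 on wild type arrays. Like those of Irs1, these values lay under the lower quartile of all genes, 5.65, and no detection calls were used. With quantile scaling applied again its log2 fold change was -0.34.

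Of 11 phosphatase genes that remove PI3K lipids or act on AKT, with a median of -0.05, 1 had an unadjusted p under 0.05. This was Inpp5e, a lipid phosphatase of the primary cilium, with a log2 fold change of 0.45 ± 0.17 (SE, limma adjusted p = 0.45). Inpp5k and the SHIP2 gene Inppl1 differed by -0.47 and 0.28 on the log2 scale (limma adjusted p of 0.56 and 0.62). The lists of 14 AKT substrates and 6 genes of IRS1 and GRB10 turnover had medians of 0.00 and 0.13. In the first, Gsk3a, a kinase that AKT inhibits, had 8.49, 8.45 and 9.03 on mutant and 8.13, 7.15 and 8.23 on wild type arrays, and Mdm2, the ligase that degrades p53, had 10.41, 10.35 and 10.35 on mutant and 10.92, 11.15 and 10.52 on wild type arrays. Neither pair of groups overlapped, and limma gave both an adjusted p of 0.46, with log2 fold changes of 0.82 ± 0.32 and -0.49 ± 0.19 (SE). With its probe sets averaged, Mdm2 had a log2 fold change of -0.046 (limma adjusted p = 0.91). The glucose transporter gene Slc2a4 had a log2 fold change of -0.44 (limma adjusted p = 0.54). In the second, Nedd4, the ubiquitin ligase that partners with GRB10 in IGF1R turnover, had 12.43, 12.55 and 12.43 on mutant and 12.30, 12.20 and 12.05 on wild type arrays, without overlap. Its log2 fold change was 0.29 ± 0.15 (SE, limma adjusted p = 0.57), and Fbxw8 and Socs6 had values of 0.20 and 0.22.

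The widest differences of the pathway lay among 12 genes for AKT and related kinases, with a median of 0.13, 3 higher and 1 lower at an unadjusted p under 0.05. Sgk1, a kinase related to AKT that depends on mTORC2, had 8.523, 7.838 and 8.998 on mutant and 7.758, 5.441 and 6.562 on wild type arrays. Wild type array 1 lay just below the lowest mutant array, while wild type arrays 2 and 3 lay far below. Its log2 fold change was 1.87 ± 0.56 (SE, limma adjusted p = 0.33). It was 0.70 without wild type arrays 2 and 3, 0.73 in a fit with the Y-linked covariate and 2.45 without wild type array 1. Trib2, a pseudokinase of the tribbles family that binds COP1, had 9.29, 8.50 and 9.53 on mutant and 7.35, 7.97 and 6.89 on wild type arrays, with a log2 fold change of 1.70 ± 0.35 (SE, limma adjusted p = 0.16). With its probe sets averaged it was 0.96 (limma adjusted p = 0.31), and without wild type arrays 2 and 3 it was 1.75.

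Rps6kb2, which encodes the second S6 kinase, had 9.07, 9.18 and 9.29 on mutant and 8.68, 7.83 and 8.62 on wild type arrays. All mutant arrays lay above all wild type arrays, with a log2 fold change of 0.80 ± 0.25 (SE, limma adjusted p = 0.34). Trib3, a tribbles pseudokinase reported to bind AKT, had 7.32, 6.73 and 7.09 on mutant and 7.48, 8.75 and 7.79 on wild type arrays, a log2 fold change of -0.96 ± 0.33 (SE, limma adjusted p = 0.41) that was -0.43 without wild type arrays 2 and 3. The marker levels given above also moved with the group. Those of mast cells and macrophages were higher on the mutant arrays, and those of neutrophils and of stem and progenitor cells lower. Their part in the values of the pathway genes, higher or lower, was not tested.

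**Figure D4:**
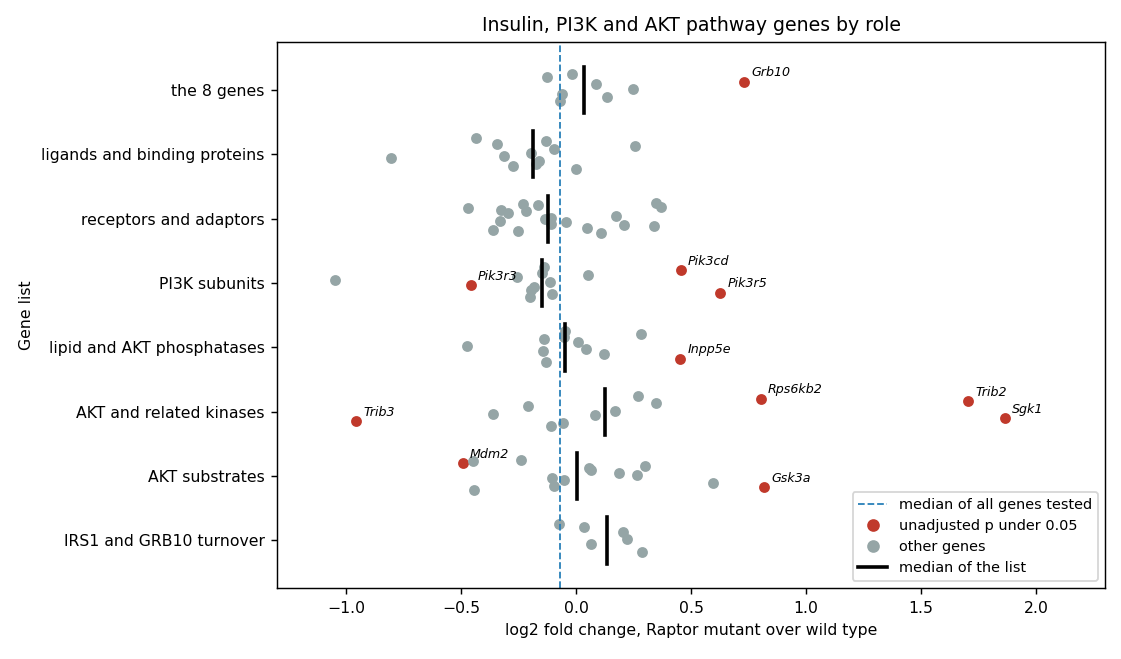
Log2 fold change, Raptor mutant over wild type, of the 8 genes and of 88 other pathway genes, by role. Each point is a gene, red where the unadjusted p of limma is under 0.05 (named), black bars are list medians and the dashed line is the median of all genes tested (-0.07). List medians lie between -0.19 and 0.13, and Sgk1 (1.87) and Trib2 (1.70) stand farthest to the right.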

How the data were processed

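Each probe set has 1 intensity per array, which the authors deposited on a linear scale (7.60 to 33796), so log2 was taken. RMA made these values, per the submitters' processing notes; its version and settings are not given in the sources used. Of 45101 probe sets, 34945 named a single gene in the platform annotation, while 64 controls, 9160 probe sets with no gene and 932 with several were not used. The brightest probe set by mean stood for a gene. No depth exists for arrays, and their number, 3 per group, limits the precision. The test was that of limma 3.58.1 (R 4.3.3; lmFit, then eBayes without trend), two-sided, with Benjamini-Hochberg adjustment over all genes, or over all probe sets. A result is called at an adjusted p under 0.05. The procedure was also run on simulated data with independent noise and the same SD in both groups. The SDs of these arrays differ between the groups, so that run does not measure its performance here. Arrays were distinct, with at most 99 identical values between a pair. The 8 genes, the lists and the tests were chosen with earlier results of these data known. Named genes are the 8, up to 3 per list with the smallest p, and those closest to a member over the arrays. Rptor, Kdm5d, Eif2s3y and Xist are named as checks of the arrays. Trib3, Gzmb, Kit, Cd34 and Flt3 and the promoter motifs were added after values were seen. Alternatives were the replicate block, centring, quantile or cyclic loess scaling, averaged probe sets, leaving out the lower 25% or 50% of genes, trend and robust fitting, array weights, Y-linked signal as a covariate, and leaving out arrays.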

Additional observations from a re-analysis of the deposited data

How the results depend on the processing

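Limma called 0 of the 8 genes, 0 of the 24 probe sets and 0 of the other pathway genes under each of the alternatives run, 17 for genes and 14 for probe sets. Of 134 values of the 8 genes under alternatives, 113 kept their direction and 21 changed sign, none of them called, and Irs1 was not tested in 2 settings as it lies in the lower 25% of genes. Grb10 kept its direction in all 17, with log2 fold changes of 0.15 to 1.02 and an adjusted p of at least 0.10.

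Counts over all genes, 10 higher and 10 lower, moved with the setting. They were 6 and 4 with the replicate block, 16 higher with averaged probe sets, 6 higher without the lower 50% of genes, 20 and 20 with trend and robust fitting, and 6 and 2 with array weights. Both were 0 in limma with Y-linked signal as a covariate (1149 at an unadjusted p under 0.05) and with wild type arrays 2 and 3 left out (1729). Leaving out 1 array at a time gave 4 to 25 higher and 1 to 7 lower, the highest without wild type array 1 (25 higher, 6 lower) and the lowest without wild type array 3 (4 higher, 1 lower). The labels name no pairing of the arrays by replicate number. Deviations of same-numbered arrays from their group means correlated at 0.18, -0.03 and 0.06, and those of other mutant and wild type pairs at -0.16 to 0.094. Since deviations within a group of 3 sum to 0, these values cannot decide whether the arrays were paired. None of the 8 genes was called with or without the block.

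Among the 8 genes, the named pathway genes and the differences between related genes, signs changed as follows, and the cause was not tested. The Y covariate and leaving out wild type arrays 2 and 3 make nearly the same comparison and are not separate checks. The medians of the other pathway genes and of all genes also turned above 0 with the Y covariate, without wild type arrays 2 and 3 and without the lower 50% of genes, as given above. With averaged probe sets Pik3r1 was -0.095, Igfbp7 0.046 and the Akt2 minus Akt1 difference 0.0089. With array weights Akt1 was 0.025. With the Y covariate Insr was -0.13, Irs1 0.070, Pik3r1 -0.15, Akt1 0.28, Akt2 0.12, Igfbp7 0.0037, Igfbp6 0.026 and Socs6 -0.21. Without wild type arrays 2 and 3 they were -0.19, 0.093, -0.18, 0.34, 0.16, 0.043, 0.062 and -0.28 in the same order, and the Igf1r minus Insr difference was 0.022, against -0.32 over all arrays. Leaving out 1 array at a time, log2 fold changes ran from -0.20 to 0.027 for Igf1r, -0.21 to 0.32 for Irs2, -0.022 to 0.22 for Pik3r1, -0.20 to 0.29 for Akt1, -0.20 to 0.11 for Akt2, -0.24 to 0.48 for Socs6 and -0.18 to 0.15 for the Akt2 minus Akt1 difference.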
